A study of Rattus norvegicus with 31 samples.

Results

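The genes described here are the activators of the core circadian clock and the nuclear receptors that act back on them: Arntl (also called Bmal1), Clock, Npas2, Nr1d1, Nr1d2 and Rora. They were chosen by name, and all 6 were found among the 26312 genes of the count table, ARNTL and NR1D2 in capitals. All 6 also passed the filter on low counts that left 19904 genes for testing. Their RNA was measured in the livers of 31 young adult female Wistar rats (Crl:WI) that were gavaged daily for 28 days. The 8 control rats received the vehicle alone, 0.5% carboxymethyl-cellulose in water, in which the compounds were suspended for all other groups. The neonicotinoid insecticide thiacloprid (THI) was given at 108 mg/kg bw/day to 4 rats, the azole fungicide imazalil (IMZ) at 93 mg/kg bw/day to 4 rats, and the neonicotinoid clothianidin (CTD) at 288 mg/kg bw/day to 3 rats. The paper marks this CTD group for killing in moribund condition, so its 3 rats are those that remained. Groups of 4 rats received 2 compounds at once: 54 mg/kg bw/day THI with 46 mg/kg bw/day IMZ (THI + IMZ), 54 mg/kg bw/day THI with 134 mg/kg bw/day CTD (THI + CTD), and 46 mg/kg bw/day IMZ with 135 mg/kg bw/day CTD (IMZ + CTD). These were the high dose groups of the study. All rats lived under a light/dark cycle of 12 h each, and the clock time at which each liver was removed is not given in the sources used here, so the levels below are compared between livers and are not placed in a daily cycle.

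ARNTL pairs with CLOCK, or with its relative NPAS2, and the pair binds E-boxes in the DNA to switch on the Per and Cry genes, Dbp, Nr1d1 and Nr1d2. The proteins of Per and Cry close one loop by blocking the pair. The proteins of Nr1d1 and Nr1d2, REV-ERB alpha and beta, close a second loop: they are repressors that bind ROR elements and hold down Arntl, Npas2, Clock and Cry1, while ROR alpha, the protein of Rora, binds the same elements as an activator. In liver this clock times much of metabolism, and Nr1d1 RNA is known for a very large swing within each day.

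The promoters of Arntl and Nr1d1 are shown because they hold letters of the ROR element and of the E-box, and they were the only members with a match to any of the letters searched. The windows are RefSeq sequences of the GRCr8 assembly, a different one from the Rnor_5.0 of the counts, and hold the 250 bases before a start. The letters searched on both strands were TAGGTCA, the end of a ROR element, AAAGTAGG, the beginning of the form of it at Arntl, which overlaps TAGGTCA by 4 letters there, the E-box CACGTG, the related CACGTT, and the D-box TTATGTAA. Capitals mark the matches. The first line is Arntl, on the plus strand at chr1:176766078-176766327, and the second is the downstream of the 2 starts listed for Nr1d1, on the minus strand at chr10:84229455-84229704.
Arntl: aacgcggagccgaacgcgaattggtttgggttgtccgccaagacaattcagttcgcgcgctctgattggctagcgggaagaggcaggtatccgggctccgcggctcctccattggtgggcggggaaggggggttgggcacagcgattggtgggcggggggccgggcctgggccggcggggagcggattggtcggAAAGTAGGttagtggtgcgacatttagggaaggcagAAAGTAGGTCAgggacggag
Nr1d1: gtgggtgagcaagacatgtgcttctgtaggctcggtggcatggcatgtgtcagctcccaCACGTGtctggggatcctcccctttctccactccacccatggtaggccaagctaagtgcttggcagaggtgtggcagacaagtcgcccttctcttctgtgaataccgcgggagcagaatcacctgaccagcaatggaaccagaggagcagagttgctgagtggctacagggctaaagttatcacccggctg

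The Arntl window held AAAGTAGG at positions -56 and -20 (counted from the start as 0) and TAGGTCA at position -16. Of all 33469 windows of 27457 genes, 2.26% held TAGGTCA. AAAGTAGG, in 0.896% of windows, was taken from the form of the element at Arntl, so that a match there was fixed by the choice of letters. The Nr1d1 window held CACGTG at position -191, as did 5.59% of all windows, and the window of its other start held CACGTT on the opposite strand at position -174, as did 4.07%. The D-box, in 0.828% of all windows, was matched in none of the members' windows. No match to any of these letters lay in the windows of Clock (2 starts), Npas2, Nr1d2 or Rora. A match is a description of letters and not a binding site.

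Sequencing depth per liver lay between 31.8 and 101 M counts. Controls were sequenced more deeply (median 60.5 M) than treated rats (median 40.2 M). The hepatocyte markers summed to 161000 to 251000 CPM (counts scaled to a common library size) per liver, whereas those of T and NK cells summed to at most 1.67 CPM. Of the 5 pancreas markers Cpa1 averaged 149 CPM over all livers and Cela1 4.94 CPM, with the other 3 at 0.0942 CPM or less, and at most 1 of the 5 was called in any treatment. Their sum was 194 to 468 CPM in the controls. It was 59.4 to 127 CPM in THI, 17.7 to 137 in CTD, 57.5 to 181 in THI + IMZ and 21.4 to 145 in THI + CTD. In IMZ (97.7 to 206 CPM) and IMZ + CTD (82.1 to 215 CPM) it overlapped the controls. The part of this difference in the results for the members was not tested. Levels are given as CPM, scaled by the TMM factors of edgeR and not by gene length, so that levels of different genes are not compared. Treatments were set against control in 1 edgeR model of all 7 groups with quasi-likelihood tests, and a gene is called when its Benjamini-Hochberg adjusted p over all 19904 genes is under 0.05. The 6 comparisons share the 8 control livers. In a whole liver piece, fewer cells of a type and less RNA per cell cannot be told apart.

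Nr1d2 was the only member called against control, in CTD and in IMZ + CTD. Of the 36 tests of a member against control, 2 were called, both for Nr1d2 and both higher. No member was called in THI, where 0.543% of all genes were, in IMZ (0.251%), in THI + IMZ (1.18%) or in THI + CTD (4.39%). One of the 6 members was called in CTD, where 12.7% of all genes were called, and 1 of 6 in IMZ + CTD, where 1.46% were. In CTD the median log2 fold change of the 6 was 0.21 against -0.07 over all genes tested, and in IMZ + CTD it was 0.16 against -0.03. No member stood clear of the controls, in the sense that all treated livers lay beyond all controls, in THI (1.42% of all genes), IMZ (1.27%), CTD (10.8%), THI + IMZ (1.46%), THI + CTD (3.96%) or IMZ + CTD (2.62%). Ordering the 7 groups by their mean gave 36 steps between neighbours over the 6 genes, and 1 of these steps exceeded the larger SD of its groups, that of Rora from the controls down to IMZ + CTD.

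**Figure D1:**
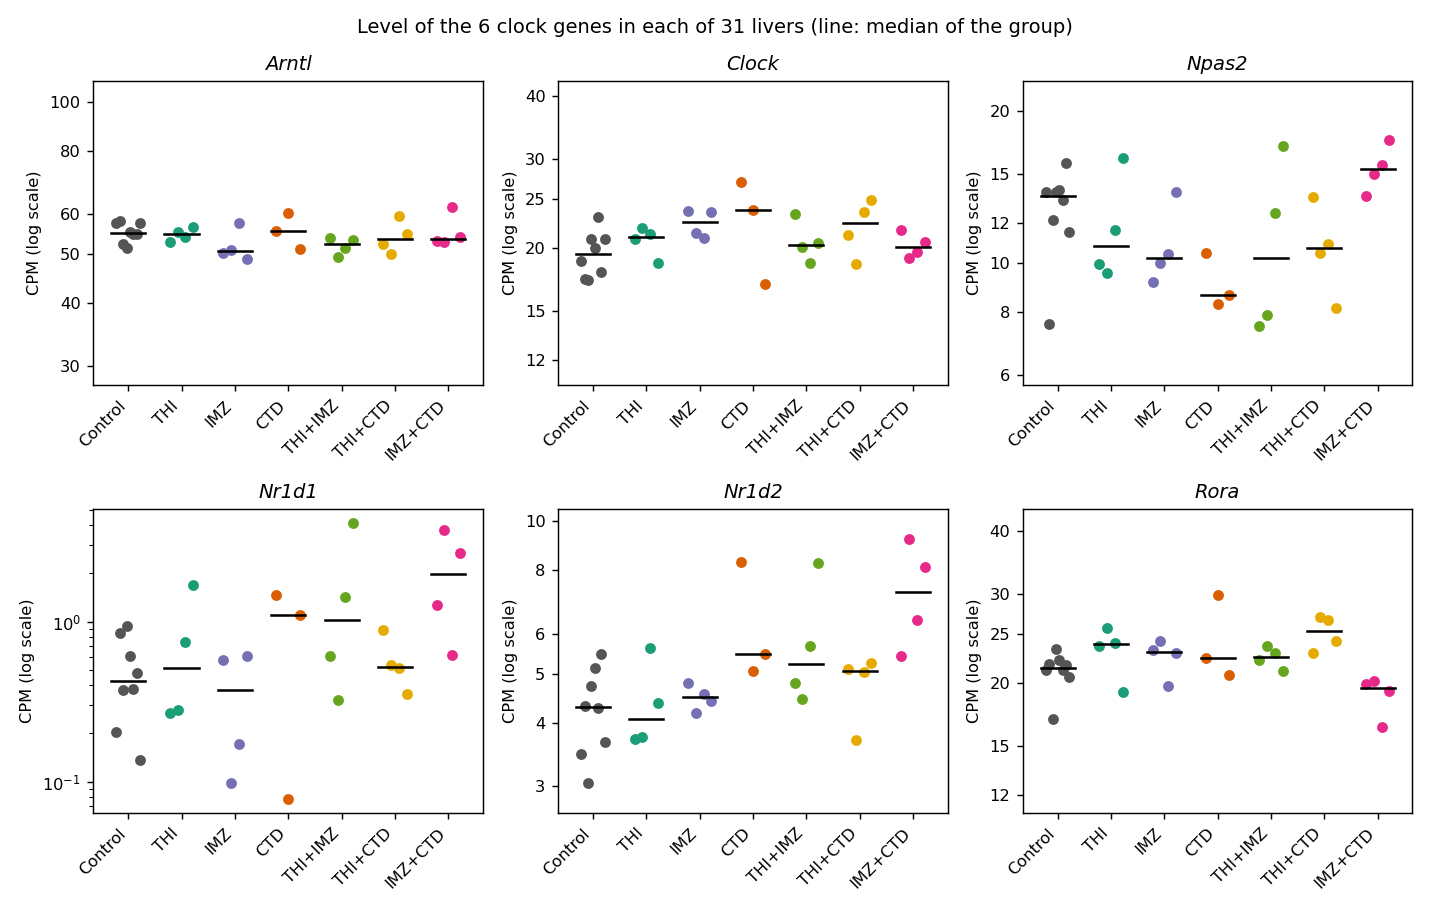
CPM of each member on a log axis, 1 point per liver, with the group median as a line. Arntl lay between 48.8 and 61.9 CPM in all 31 livers, whereas Nr1d1 ran from 0.0775 to 4.16 CPM, and 3 of the 4 IMZ + CTD livers lay above all controls for Nr1d2 and for Nr1d1.

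Arntl, the partner that the other activators share, was the steadiest of the members. In the controls it ran from 51.3 over a median of 55.0 to 58.0 CPM, and over all 31 livers its highest value was 1.27 times its lowest. The SD within groups was 0.09 on the log2 scale, against 0.19 for the median of the 11191 genes above 0 log2 CPM, and among the controls 96.7% of those genes varied more. The fold changes against control ran from -0.09 ± 0.06 (SE, log2, IMZ and THI + IMZ) to 0.01 ± 0.07 (CTD), with adjusted p from 0.633 to 0.998. The 95% intervals of the 6 fold changes ran from 0.862-fold to 1.11-fold. One liver stood apart, replicate 3 of IMZ + CTD at 61.9 CPM, beside 53.1, 52.7 and 53.9 CPM.

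Clock, the DNA-binding partner of ARNTL in the pair, was at 17.2 to 22.98 CPM in the controls with a median of 19.4 CPM. All 6 fold changes were positive, from 0.05 ± 0.10 in IMZ + CTD to 0.21 ± 0.11 in CTD (log2 ± SE), and none passed the test. The smallest adjusted p was 0.218, in CTD. The 3 CTD livers were at 26.95, 23.7 and 16.95 CPM. The first and the last are the highest and the lowest Clock values of all 31 livers, and 2 of the 3 lay above all controls. Without replicate 3, the lowest, Clock was called in CTD with a log2 fold change of 0.38 and an adjusted p of 0.017. This was its only call in 17 alternative fits, in which the adjusted p reached 0.781.

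Npas2, the relative of CLOCK that can take its place, spread more widely, with an SD within groups of 0.33 on the log2 scale. It was below control on average in 5 treatments and above it in IMZ + CTD, but no test against control was passed. The controls ran from 7.57 over a median of 13.6 to 15.8 CPM. The CTD livers, at 10.5, 8.30 and 8.64 CPM, lay below all controls but replicate 2, the control with the lowest value, and the log2 fold change of -0.48 ± 0.21 had an adjusted p of 0.139. In IMZ + CTD the livers were at 13.6, 15.0, 15.6 and 17.5 CPM, from the control median up to above the highest control, with a log2 fold change of 0.27 ± 0.18 and an adjusted p of 0.578.

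Nr1d2, which encodes REV-ERB beta, rose in 2 of the 6 treatments. The controls ran from 3.04 over a median of 4.29 to 5.46 CPM. The IMZ + CTD livers were at 5.41, 9.23, 6.38 and 8.12 CPM, and 3 of the 4 lay above all controls. The increase was 0.77 ± 0.17 on the log2 scale, or 1.71-fold with a 95% interval of 1.34 to 2.17, with an adjusted p of 0.0128. The CTD livers were at 8.32, 5.07 and 5.48 CPM, of which replicate 2 lay within the control range and replicate 3 only just above it. The increase was 0.56 ± 0.19 on the log2 scale, or 1.48-fold with an interval of 1.13 to 1.93, with an adjusted p of 0.0461.

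Both calls depended on single livers. That in CTD was lost without replicate 1, where the log2 fold change was 0.31 with an adjusted p of 0.451, and it was also lost without any of control replicates 1, 2, 3, 6 and 8 (adjusted p of 0.0539 to 0.0782). That in IMZ + CTD was lost without replicate 2 (0.64, adjusted p of 0.115) or replicate 4 (0.71, adjusted p of 0.0743), the livers with the highest values. The red blood cell markers summed to 124 to 150 CPM in the CTD livers and 22.2 to 52.2 CPM in the controls, with 3 of their 4 genes called higher and 1 lower, and their part in the Nr1d2 result was not tested. In IMZ + CTD the same markers summed to 17.8 to 52.8 CPM and none of the 4 was called. The Kupffer cell and macrophage markers summed to 265 to 383 CPM in CTD and 331 to 529 CPM in the controls, with 2 of 7 called lower in CTD, and to 232 to 419 CPM in IMZ + CTD, where none was called. Their part in the Nr1d2 results was not tested either.

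The other mixtures and the single compounds did not change Nr1d2 by the test. The THI + IMZ livers were at 4.78, 4.46, 5.68 and 8.26 CPM, 2 of them above all controls, with a log2 fold change of 0.44 ± 0.17 and an adjusted p of 0.281. The THI livers were at 3.72, 3.75, 5.62 and 4.38 CPM, the IMZ livers at 4.78, 4.17, 4.56 and 4.41 CPM, and the THI + CTD livers at 5.11, 3.70, 5.03 and 5.24 CPM. All but 1 of these 12 values lay within the control range. The log2 fold changes of these 3 groups were 0.03 to 0.16, with adjusted p from 0.661 to 0.992.

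Nr1d1, which encodes REV-ERB alpha, gave by far the widest range of the 6 and the largest fold changes, none of which passed the test. Over the 31 livers its highest level was 53.7 times its lowest. Its SD within groups was 1.16 on the log2 scale, and among the controls only 0.813% of the genes above 0 log2 CPM varied more than it did. Nr1d1 itself, at a mean log2 CPM of -0.63, lies below the genes of that set. The gene was thinly covered, with 3 to 197 counts per liver, so that counting error is large at the low end: 3 counts in CTD replicate 2 gave 0.0775 CPM with an exact 95% Poisson interval of 0.016 to 0.227, and 197 counts in THI + IMZ replicate 4 gave 4.16 CPM with an interval of 3.60 to 4.78, which covers counting error only. The intervals of such livers lie far apart.

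The controls ran from 0.136 over a median of 0.427 to 0.940 CPM. The IMZ + CTD livers were at 1.26, 3.75, 0.617 and 2.70 CPM, and 3 of the 4 lay above all controls. The log2 fold change was 2.07 ± 0.59, a 4.21-fold level with a 95% interval of 1.82 to 9.73, and the adjusted p was 0.076. The THI + IMZ livers were at 0.609, 0.322, 1.43 and 4.16 CPM, with a log2 fold change of 1.73 ± 0.59 and an adjusted p of 0.192. Without replicate 4 the log2 fold change was 0.67 with an adjusted p of 0.71. Within this group the levels spanned 12.9-fold, and 2 of the 4 livers lay within the control range.

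The CTD livers, at 1.46, 0.0775 and 1.11 CPM, held 2 values above all controls and the lowest value of all 31. The THI livers were at 0.269, 0.282, 0.744 and 1.69 CPM and the IMZ livers at 0.579, 0.0981, 0.172 and 0.605 CPM. The THI + CTD livers were at 0.891, 0.535, 0.511 and 0.354 CPM, all within the control range. Fitted to the IMZ + CTD and control livers alone, Nr1d1 was called in IMZ + CTD with an adjusted p of 0.0244. This was the only call in 18 alternative fits, in which the adjusted p reached 0.343. In the RefSeq gene list Nr1d1 overlaps Thra, the thyroid hormone receptor alpha gene, and the strand setting of the counting is not given in the sources used here, so its counts are uncertain. Clock, Npas2 and Rora each overlap 2 genes that do not code for protein, and the same doubt holds for them, whereas Arntl and Nr1d2 overlap none. Thra ran from 5.01 to 10.2 CPM and its Pearson correlation with Nr1d1 over the 31 livers was -0.03 on log2 CPM.

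**Figure D2:**
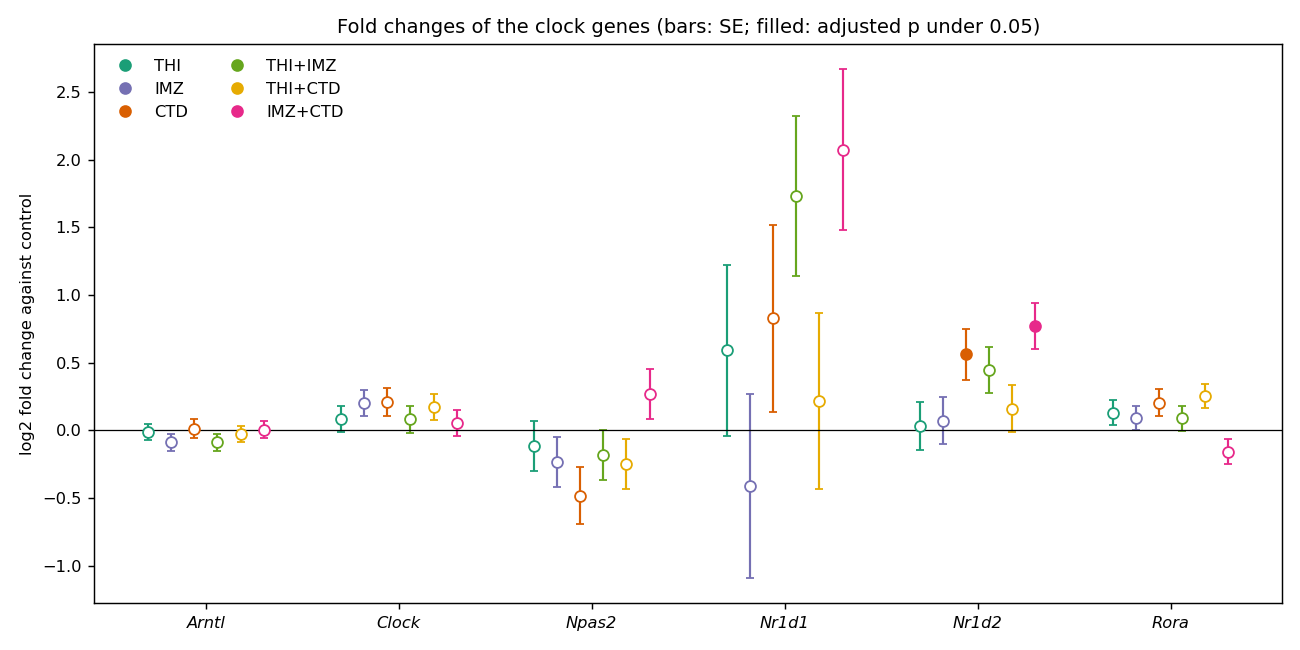
Log2 fold change of each member in each treatment against the 8 controls, with SE bars, filled where the adjusted p is under 0.05. The filled points are Nr1d2 in CTD (0.56) and in IMZ + CTD (0.77), and the open points of Nr1d1 reach 2.07 with SE bars of 0.59.

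Rora, the activator at the ROR elements, passed no test against control, and its highest level over the 31 livers was 1.82 times its lowest, beside 1.87 for the median gene. The controls ran from 17.01 over a median of 21.5 to 23.4 CPM. The THI + CTD livers were at 22.9, 27.1, 26.7 and 24.2 CPM, 3 of them above all controls, with a log2 fold change of 0.25 ± 0.09 and an adjusted p of 0.114. The IMZ + CTD livers were at 19.9, 20.2, 16.4 and 19.3 CPM, all below the control median, with a log2 fold change of -0.16 ± 0.09 and an adjusted p of 0.497. It was the only treatment in which the fitted change of Rora was negative.

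The mixtures were also compared with the dose-weighted sum of their compounds, which adds the log2 fold changes of the single compounds after multiplying those of THI and IMZ by 0.5 and that of CTD by 0.47, the share of the single dose that the mixture held. This asks whether a mixture did what its halved compounds would add up to on the log2 scale. No member was called off the sum in THI + IMZ, THI + CTD or IMZ + CTD, where 0.0151%, 0.286% and 1.16% of all genes were. IMZ + CTD came closest, with 4 of the 6 members at an unadjusted p under 0.05, beside 2841 of all 19904 genes.

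For Npas2 in IMZ + CTD the sum was -0.35 and the measured log2 fold change 0.27, a difference of 0.62 ± 0.19 with an adjusted p of 0.0904. For Rora the sum was 0.14 and the measured value -0.16, a difference of -0.30 ± 0.10 with an adjusted p of 0.11. For both, the measured direction was opposite to the sum. Nr1d1 (0.19 summed, 2.07 measured, adjusted p of 0.129) and Nr1d2 (0.30 summed, 0.77 measured, adjusted p of 0.19) lay above the sum. With the Wald test of DESeq2, Npas2 (adjusted p of 0.0353) and Rora (0.0496) were called off the sum. Of 25 alternative fits, Npas2 was called in 2 (adjusted p up to 0.266) and Rora in 1 (up to 0.339).

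The other mixtures followed the sum more closely for most members. In THI + CTD all 6 differences lay between -0.47 (Nr1d1, SE 0.66) and 0.09 (Rora). In THI + IMZ, Nr1d1 was 1.64 ± 0.60 above the sum and Nr1d2 0.39 ± 0.17, with adjusted p of 0.584 and 0.723, and the other 4 members differed from it by 0.06 or less. Without THI + IMZ replicate 4 the difference of Nr1d1 from the sum was 0.58 with an adjusted p of 0.954.

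**Figure D3:**
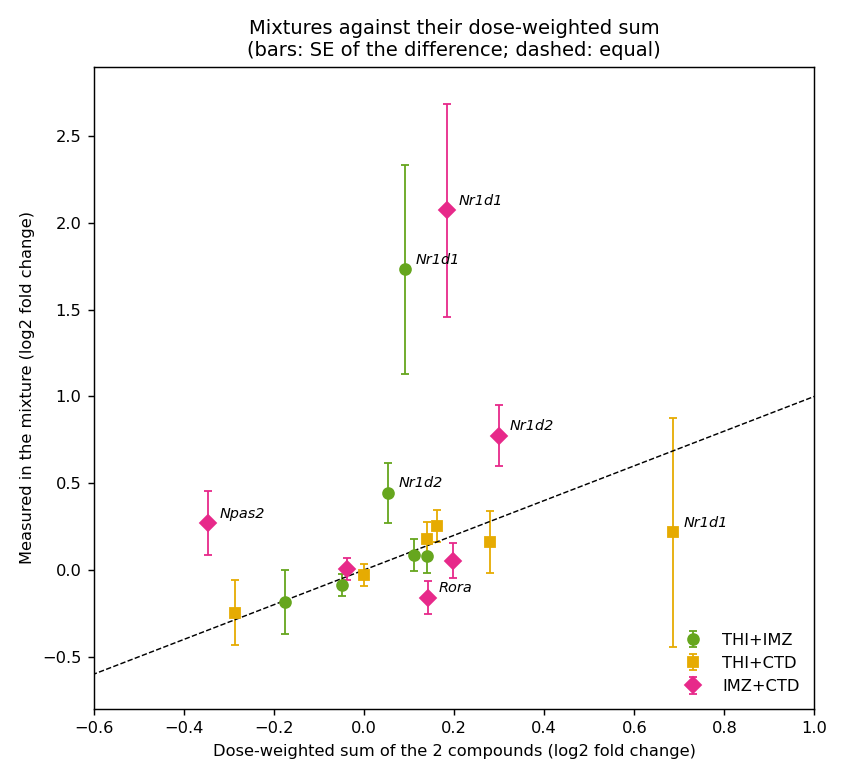
Measured log2 fold change of each member in each mixture, plotted over what its compounds add up to by dose, with the SE of the difference as bars and equality as a dashed line. Nr1d1 in IMZ + CTD (2.07 measured, 0.19 summed) and THI + IMZ (1.73 measured, 0.09 summed) lie farthest above the line, the latter by 0.58 without THI + IMZ replicate 4, and no difference was called.

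Exchanging 1 compound of a mixture for another gave no called member. In IMZ + CTD against THI + CTD, which share about the same dose of CTD, none of the 6 was called (0.176% of all genes were), while 3 of the 6 did not overlap between the groups, beside 5.20% of all genes. Rora was lower in all 4 IMZ + CTD livers than in all 4 THI + CTD livers (-0.41 ± 0.11 log2, adjusted p of 0.105), and Nr1d2 (0.61 ± 0.20, adjusted p of 0.238) and Npas2 (0.52 ± 0.21, adjusted p of 0.383) were higher in all. With the Wald test of DESeq2, Rora was called (adjusted p of 0.026). This was its only call in 14 alternative fits, in which the adjusted p reached 0.315.

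In IMZ + CTD against THI + IMZ, none of the 6 was called (0.0653% of all genes were), and 1 did not overlap, again Rora (-0.25 ± 0.11, adjusted p of 0.483), beside 4.10% of all genes. In THI + CTD against THI + IMZ, which exchanges the neonicotinoid CTD for the azole IMZ, none was called (0.171%) and none stood clear (4.12%). Given alone, the neonicotinoids THI and CTD were at different doses, and their log2 fold changes for Nr1d2 were 0.03 and 0.56, with no test between them.

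The members did not move together as a block from liver to liver. Over the 31 livers, with the mean of each group removed, 1 of the 15 pairs passed the adjustment over the 15 pairs by Pearson's r, Nr1d1 with Nr1d2. Their r was 0.664 and rho 0.647, with adjusted p of 0.0126 and 0.0124 (permutation within groups, two-sided), and r was 0.597 without the 2 livers farthest from the median of Nr1d1. Rats with more Nr1d1 than others of their group thus tended to have more Nr1d2. In the 8 controls alone r was 0.585 and rho 0.69, with exact permutation p of 0.13 and 0.0694 and adjusted p of 0.825 and 0.347.

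Npas2 followed the REV-ERB genes to a lesser degree. Its r with Nr1d1 was 0.505 and its rho 0.566 (permutation, adjusted p of 0.0797 and 0.0318), and 0.596 without the 2 farthest livers. With Nr1d2 they were 0.477 and 0.486 (permutation, adjusted p of 0.102 and 0.0675). Arntl and Nr1d1, the ends of the second loop, gave r = -0.361 and rho = -0.311 with permutation p of 0.0892 and 0.133, and adjusted p of 0.334 and 0.485. In the controls no pair passed the adjustment; the largest rho was 0.905, between Nr1d1 and Rora (exact permutation p of 0.00456, adjusted p of 0.0685), where r was 0.414.

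Among the 10876 genes with a symbol and a mean log2 CPM above 0, the genes whose log2 CPM was most opposite to Nr1d1 over the 31 livers were 2 genes of the clock itself. They were Cry1 (Pearson r = -0.744) and Per2 (r = -0.742), which encode repressors of the activator pair, followed by Usp2 (r = -0.722), a deubiquitinase. With group means removed, r was -0.698 for Cry1, -0.645 for Per2 and -0.641 for Usp2, and Ccdc41 (-0.749) and Sc5d (-0.738) came before Cry1. The 3 genes most like Nr1d1 were Gli4 (r = 0.729), Nr1d2 (r = 0.721) and Hace1 (r = 0.69). These correlations are descriptions, chosen as the extremes of all genes.

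The opposition of Nr1d1 and Per2 was not equally clear in every group. In THI + IMZ, chosen here after the values were seen, replicates 1 to 4 held 0.609, 0.322, 1.43 and 4.16 CPM of Nr1d1 and 35.0, 28.5, 17.2 and 7.35 CPM of Per2, so that the liver with the most Nr1d1 had the least Per2. Among the controls it was otherwise: replicate 4, with the most Nr1d1 (0.940 CPM), had 32.98 CPM of Per2, the second highest, and replicate 8, with the least (0.136 CPM), had 21.2 CPM, the second lowest. In IMZ + CTD, replicate 3 had the least Nr1d1 of its group (0.617 CPM) and 8.32 CPM of Per2, below replicate 1 (1.26 and 17.3 CPM). Replicates 2 and 4, with more Nr1d1 (3.75 and 2.70 CPM), had less Per2 (7.32 and 6.13 CPM).

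**Figure D4:**
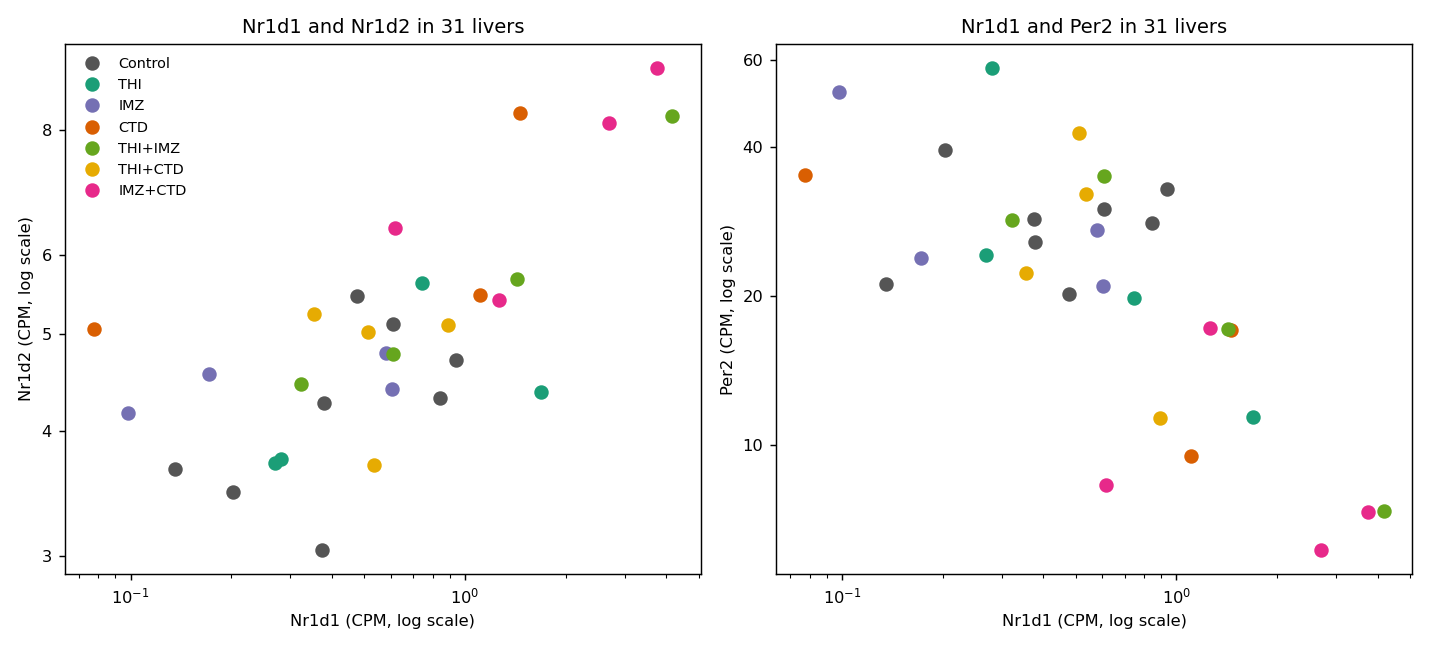
Nr1d1 against Nr1d2 (left) and against Per2 (right), in CPM on log axes, 1 point per liver colored by group. Nr1d2 climbs with Nr1d1 (r = 0.721 over 31 livers) and Per2 descends (r = -0.742), and the 3 livers with the most Nr1d1 are THI + IMZ replicate 4 and IMZ + CTD replicates 2 and 4.

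The other members had other companions. Npas2 was most opposite to Idi1 (r = -0.83), of cholesterol synthesis, Cpt2 (r = -0.81), of mitochondrial fatty acid oxidation, and Acot4 (r = -0.805), an acyl-CoA thioesterase. It was most like Fgr (0.784), a Src family kinase, Gckr (0.769), the regulator of glucokinase, and Sds (0.767), serine dehydratase. With group means removed, their r was -0.76, -0.745, -0.752, 0.762, 0.73 and 0.691, in that order. Other genes were then the extremes of Npas2, led by RGD1309821 (-0.843) and Mdm1 (0.832). Nr1d2 was most like Cks1b (0.719), Nek1 (0.697) and Aspm (0.678), of which Cks1b and Aspm act in cell division, and most opposite to Agpat2 (-0.76), Actb (-0.723) and Ctnnbl1 (-0.723). The r of Aspm fell to 0.438 with group means removed. Rora was most like Vav2 (0.798), Aco1 (0.751) and Nop14 (0.749) and most opposite to Ing4 (-0.746), Snai2 (-0.733) and Leprot (-0.726). With group means removed, Wdr70 (0.87) and Cd48 (-0.766) were its extremes, and Vav2 was at 0.676.

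Clock was most like Aff4 (0.784), Kpna4 (0.783) and Cmtm4 (0.753) and most opposite to Pxmp2 (-0.71), Ndufb9 (-0.7) and Il11ra1 (-0.698). With group means removed, Aff4 (0.824) and Ndufb9 (-0.716) were its extremes. With differences between groups left in, the extremes of Arntl were the weakest of the 6. They ran from Tmem43 (0.616), Mex3c (0.568) and Rnf2 (0.565) to Pycrl (-0.599), Tep1 (-0.586) and Emilin2 (-0.555). With group means removed, Arntl reached 0.674 (Tmem43) and -0.733 (Akr1c13), and its lowest r lay beyond that of Nr1d2 (-0.614, Ptdss2).

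Around the members, 26 further clock genes were listed by role, of which 24 were tested. In IMZ + CTD 4 of the 24 were called, all lower, where 1.46% of all genes were called in either direction. In CTD 3 were called lower and 1 higher, where 12.7% of all genes were called. In THI (0.543% of all genes called) and in THI + IMZ (1.18%) 1 was called lower. In THI + CTD (4.39%) 1 was called higher and 1 lower, and in IMZ (0.251%) none.

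The output factors, whose genes carry the rhythm to metabolic targets, were lower in IMZ + CTD for 3 of 4, with a median log2 fold change of -0.87 against -0.03 over all genes. Dbp, an E-box target of the activator pair, was at 2.43, 2.30, 2.76 and 2.86 CPM in IMZ + CTD and from 4.07 to 7.58 CPM in the controls. The groups thus do not overlap for Dbp, as for 2.62% of all genes in either direction. Dbp fell by 1.09 ± 0.18 on the log2 scale with an adjusted p of 0.000968. Its relatives Tef (-0.73 ± 0.18, adjusted p of 0.0332) and Hlf (-1.003 ± 0.24, adjusted p of 0.0211) were lower too. The Tef call was lost without IMZ + CTD replicate 1, 2 or 3 (adjusted p of 0.069, 0.15 and 0.15) or control replicate 2 or 6 (0.0567 and 0.0626), and that of Hlf without IMZ + CTD replicate 2, 3 or 4 (0.0701, 0.118 and 0.0648), whereas that of Dbp was kept without any liver. Nfil3, the repressor at the D-boxes that the other 3 activate, was not called there (-0.12 ± 0.11, adjusted p of 0.686). It was lower in CTD (-0.53 ± 0.12, adjusted p of 0.0035) and THI + CTD (-0.50 ± 0.11, adjusted p of 0.00558), where none of the other 3 was called.

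Of the 8 repressors of the E-box loop, Per1 was called lower in 4 treatments. It ran from 9.99 to 29.4 CPM in the controls, and was at 10.3, 3.997, 6.95 and 5.43 CPM in THI, where it fell by 1.45 ± 0.27 on the log2 scale (adjusted p of 0.00403). It fell by 1.38 ± 0.27 in IMZ + CTD (adjusted p of 0.00493), by 1.12 ± 0.26 in THI + IMZ (adjusted p of 0.0238) and by 0.96 ± 0.29 in CTD (adjusted p of 0.0256). In THI + CTD the Per1 change of -0.81 ± 0.26 was not called (adjusted p of 0.0669), but it was by the Wald test of DESeq2 (adjusted p of 0.0207). It was called in 3 of 18 alternative fits, and leaving out single livers gave adjusted p up to 0.219. The Per1 call in CTD was lost without control replicate 5 (adjusted p of 0.0505) or without any of the 3 CTD livers (0.065, 0.0761 and 0.11), and that in THI + IMZ without its replicate 3 (0.103) or 4 (0.117). Fitted to the THI + IMZ and control livers alone, Per1 was not called in THI + IMZ either (adjusted p of 0.0753). Bhlhe40, a repressor that competes for E-boxes, was lower in CTD (-0.83 ± 0.21, adjusted p of 0.00736), a call lost without CTD replicate 1 (0.0556) or 3 (0.072).

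Per2 and Cry1, the genes most opposite to Nr1d1, did not pass the test in IMZ + CTD. Per2 was at 17.3, 7.32, 8.32 and 6.13 CPM there and from 20.2 to 39.5 CPM in the controls, with a log2 fold change of -1.54 ± 0.42 and an adjusted p of 0.0596. Cry1, a target of both loops, was at 24.4, 17.9, 25.2 and 20.8 CPM there and from 28.1 to 40.6 CPM in the controls, with -0.59 ± 0.18 and an adjusted p of 0.0981. For both, all 4 livers lay below all controls, beside 2.62% of all genes that stood clear of the controls in either direction. Both were called by the Wald test of DESeq2 (adjusted p of 0.0173 and 0.031). Of 18 alternative fits, Per2 was called in 4 (adjusted p up to 0.227) and Cry1 in 2 (up to 0.322). Against the dose-weighted sum of IMZ + CTD, Cry1 was called (-0.76 ± 0.18, adjusted p of 0.0332), as were Dbp (-0.97 ± 0.18, adjusted p of 0.00566) and Hlf (-0.96 ± 0.24, adjusted p of 0.0425). The Cry1 call was lost without IMZ replicate 2 or 3, CTD replicate 2, or IMZ + CTD replicate 2, 3 or 4 (adjusted p of 0.0504 to 0.134), and that of Hlf without any of these or IMZ + CTD replicate 1 (0.0631 to 0.142). In IMZ + CTD against THI + CTD, Dbp (-0.997 ± 0.20) and Hlf (-1.32 ± 0.27) were lower, both with an adjusted p of 0.0268, and both calls were lost without any one of the IMZ + CTD livers (0.0532 to 0.127). They were also lost without THI + CTD replicate 2 or 3, and that of Dbp without replicate 1 (0.0634 to 0.122 in all).

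Of the other relatives and cofactors, 6 of 8 were tested, and none was called in any treatment. Of the 6 kinases and ubiquitin ligases that act on the PER and CRY proteins, Fbxw11 was called in CTD (0.23 ± 0.08, adjusted p of 0.0451) and Csnk1e, casein kinase 1 epsilon, in THI + CTD (0.31 ± 0.09, adjusted p of 0.0345), both higher. The Fbxw11 call was lost without CTD replicate 1 or 2 (0.269 and 0.234) or any of control replicates 1, 3, 6, 7 and 8 (0.0571 to 0.0718), and that of Csnk1e without THI + CTD replicate 2, 3 or 4 (0.147, 0.107 and 0.0819) or any of control replicates 1, 3, 4 and 8 (0.0509 to 0.0693). Fitted to the compared groups alone, neither Fbxw11 in CTD (adjusted p of 0.124) nor Csnk1e in THI + CTD (0.0582) was called. With no filter on low counts, the Fbxw11 call was lost as well (0.0587). Ciart, the E-box repressor also known as Chrono, was at 0 to 0.405 CPM, too low to compare.

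**Figure D5:**
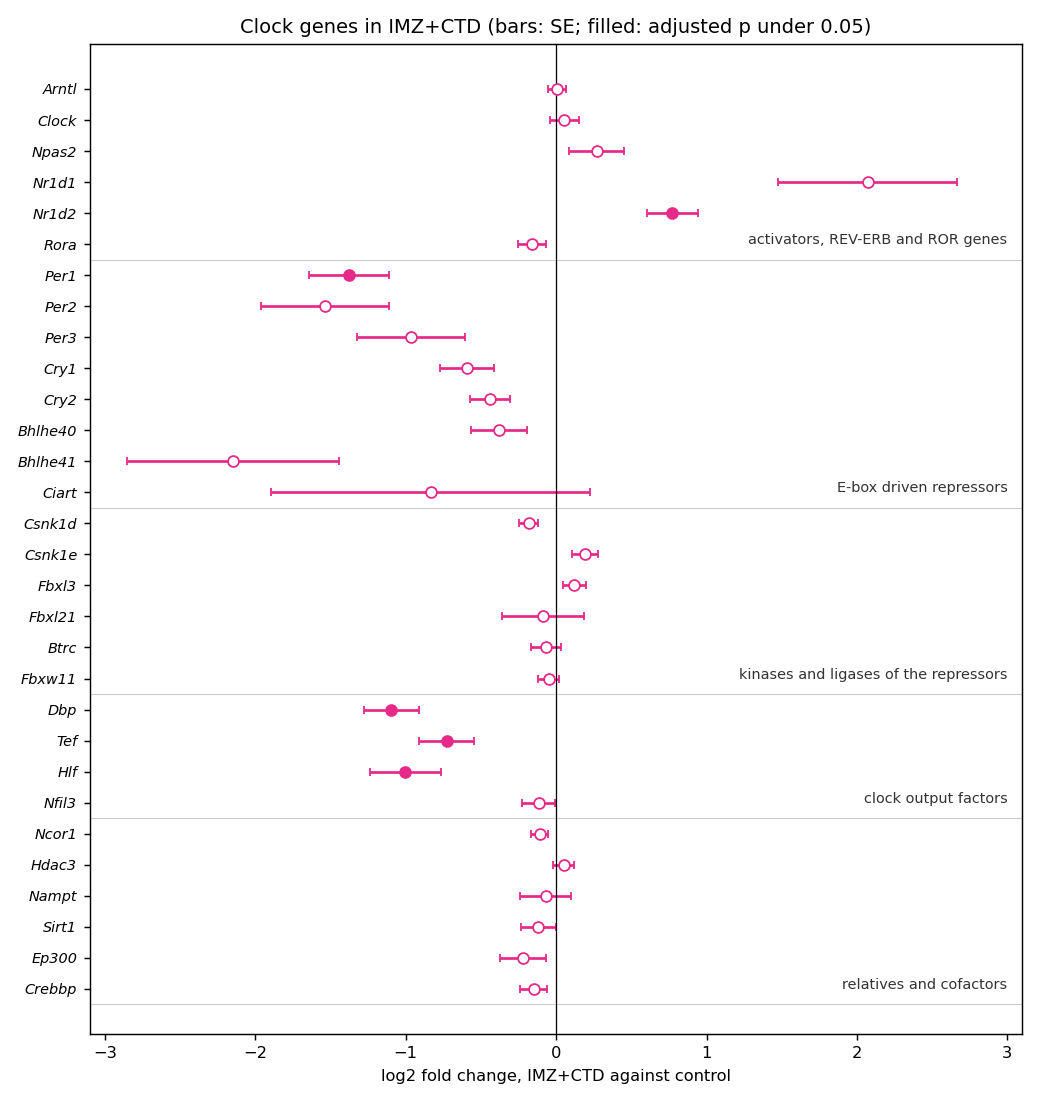
Log2 fold change in IMZ + CTD against control with SE bars for the 6 members and the 24 other clock genes tested, ordered by role and filled where the adjusted p is under 0.05. Nr1d2 (0.77) is filled on the higher side, and Per1, Dbp, Tef and Hlf (-1.38 to -0.73) on the lower side, with Arntl and Clock at 0.01 and 0.05.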

How the data were processed

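Liver RNA of 31 rats was sequenced from stranded total RNA libraries. Per the labels and the study's methods, the authors trimmed adapters, checked reads with FastQC 0.11.5, and mapped and counted them on Rnor_5.0 with STAR 2.5.2b. The annotation release and strand setting are not given in the sources used here. The authors deposited the counts per gene (26312 genes) and a second table of normalized signal (19904 genes), which equalled the counts divided by DESeq2 size factors (largest relative deviation 5.3e-15) and was used only for 1 alternative. Groups and replicate numbers came from the sample labels.

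Counts were fitted with edgeR 4.0.16 in R 4.3.3 after removing genes whose counts summed to under 2, with TMM, 1 model with 7 group means, quasi-likelihood test, adjustment over all genes, threshold 0.05. SEs were obtained from the fold change and its F statistic (log2 fold change over root F), and log2 CPM used a prior count of 2. Correlations used all pairings of the 8 controls or 100000 permutations within groups. Depth was 31.8 to 101 M counts, and the pipeline was tested on simulated data. Alternatives were DESeq2 1.42.0 (size factors or Wald test), filterByExpr, no filter, a model restricted to the compared groups, a replicate block, leaving out each liver, removal of group means and the deposited normalized values.

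The members and gene lists were chosen with earlier results of these data known. Genes were named by rule: all members, the 3 most and 3 least similar genes of each, Cry1, Nfil3, Per2, Dbp, Ciart, and any listed gene called in at least 3 treatments. One further listed gene is not reported here. Tef, Hlf, Bhlhe40, Fbxw11, Csnk1e and Thra were named after their values were seen. The other marker lists (B cells, sinusoidal endothelial cells, stellate cells and fibroblasts, bile duct cells) had at most 1 gene called in any treatment.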

Additional observations from a re-analysis of the deposited data

Results flagged for a closer look

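In 4 of the 36 groups of 4 to 8 livers examined, 1 per member and group, a single liver lay far from the others on the log2 CPM scale. Chance alone sets about 1 in 20 such groups apart. Arntl in IMZ + CTD replicate 3 was the highest of its group (log2 CPM of 5.95), Npas2 in control replicate 2 the lowest (2.93), Nr1d2 in THI + CTD replicate 2 the lowest (1.91), and Rora in control replicate 3 the lowest (4.09). Each of the 4 was a different liver.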

How the results depend on the processing

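Of 1557 recomputed values for the members, 1488 stayed the same by a rule for each kind of value. For fold changes and correlations this meant the same direction and the same side of the threshold. For counts of members or pairs it meant an equal or close count, and for lists of similar genes mostly the same genes. No called value changed sign. 33 fold changes that were not called changed sign. With the Wald test of DESeq2, 2 members were called off the sum in IMZ + CTD (Npas2 and Rora) and 1 in IMZ + CTD against THI + CTD (Rora), while the genes called over the whole table went from 230 to 614 and from 35 to 189. With only the groups compared in the fit, the counts were 0 in CTD, 2 in IMZ + CTD (Nr1d1 and Nr1d2) and 1 against the sum in IMZ + CTD (Npas2), while the genes called over the whole table went from 2518 to 2078, from 290 to 379 and from 230 to 284. Leaving out each liver in turn, the count ran from 0 to 2 in CTD and from 0 to 1 in IMZ + CTD. The cause of these moves was not tested. Nr1d2 was called in 10 of 17 alternatives in CTD (adjusted p from 0.0239 to 0.451) and in 16 of 18 in IMZ + CTD (0.0016 to 0.115). Dbp in IMZ + CTD was called in all 18. The depth limits Nr1d1, with as few as 3 counts in a liver.

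The replicate numbers gave little sign of pairing the livers. The deviations of same-numbered livers had a median correlation of 0.02 over 78 pairs (-0.27 to 0.42), with 20 over 0.1. For livers of other numbers it was -0.01 over 234 pairs (-0.42 to 0.43), with 42 over 0.1. Replicate numbers 5 to 8 exist only among the controls, so with the block those livers add nothing to the comparisons. Changes under the block therefore mix blocking with the loss of these controls. With the replicate block all 12 member counts were as without it, and Nr1d2 was called in CTD (0.77, adjusted p of 0.0239) and IMZ + CTD (0.92, adjusted p of 0.0356). Per1 was then not called in THI (adjusted p of 0.0807), CTD (0.181), THI + IMZ (0.327) or IMZ + CTD (0.0884). The block also ended the calls of Tef (0.102) and Hlf (0.0647) in IMZ + CTD, Hlf against the sum (0.0666), Fbxw11 in CTD (0.324) and Csnk1e in THI + CTD (0.0592), and Per2 was called in IMZ + CTD (-1.81, adjusted p of 0.0462).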
